A study of Mus musculus with 4 samples.

Results

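Collagen genes were followed across 2 induced pluripotent stem (iPS) cell lines, 1 embryonic stem (ES) cell line and mouse embryonic fibroblasts (MEF). They were all genes with a symbol of the form Col, number, a, number in the platform annotation, named from probe sets with a single symbol. This gave 44 collagen genes, measured by 46 probe sets, among 19938 genes on the array. By the structure they assemble, 11 were fibrillar, 9 network-forming, 9 FACIT (collagens that sit on the surface of fibrils) and 15 of other kinds.

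Total RNA was hybridised to 1-colour Affymetrix arrays, 1 array per sample. The iPS lines 178B5 and 492B4 came from a mixed DBA/2, C57BL/6 and 129S4 background, which the MEF shared. The ES line v6.5 was an F1 of 129 and C57BL/6. The 3 pluripotent lines were grown in medium with 15% serum on mitomycin-C-treated SNL feeder cells that carry puromycin resistance, and the MEF were grown without feeders in medium with 10% serum. The labels do not say whether feeder cells were removed before RNA was taken. Feeders and serum set all the lines apart from MEF, so in every comparison with MEF culture and cell type cannot be told apart. For the ES line, strain and cell type cannot be told apart. In such bulk samples, fewer cells of a type and less RNA per cell cannot be told apart.

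Every collagen chain carries stretches of repeating glycine triplets that wind with other chains into a rope-like helix. Fibrillar collagens pack into the banded fibres of skin, tendon, bone and cartilage. Network collagens form sheets such as the basement membrane, FACIT collagens decorate fibrils, and the remaining types include beaded filaments, membrane-spanning chains and the anchoring fibrils of skin. Fibroblasts are a main source of the fibrillar types, whereas early embryonic epithelia rest on a basement membrane of type IV collagen.

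The values are log2 differences between arrays: each deposited probe set value is relative to the median of that probe set over the 4 arrays, so 0 is no level and a gene may be silent at any value. The middle arrays of each probe set therefore lie equally far above and below 0, and a sign alone shows nothing. The log base was taken as 2. The array labels were checked on marker genes. This check can tell MEF from the lines, but it cannot tell ES from iPS or one iPS line from the other. All 8 pluripotency markers were called higher in the lines than in MEF, by 4.10 to 8.06 log2, and they differed between iPS and ES by -0.15 to 0.13 log2. Of 12 measured fibroblast markers 12 were below MEF in the lines and 6 were called lower, against 60.2% and 9.71% of all genes.

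Sequence before the annotated start is shown for the largest called fall in each class that had an entry in RefSeq's promoter windows, so that the genes that fell together can be compared. These windows covered 35 of the 44 genes and are those of GRCm38.p6. Each run is 150 bases, 5′ to 3′ on the gene's strand, ending at the base before the annotated start. Capitals mark CCAAT (the CCAAT box), GGGCGG (a GC box) or TGACTCA (an AP-1 site), on either strand; TATAAA was also searched and was in none of these 4 runs.
Col1a2 (chr6:4505468-4505617, + strand): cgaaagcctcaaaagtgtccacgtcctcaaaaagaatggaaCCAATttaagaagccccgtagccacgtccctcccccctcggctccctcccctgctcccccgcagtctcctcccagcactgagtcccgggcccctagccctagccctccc
Col8a1 (chr16:57754738-57754887, - strand): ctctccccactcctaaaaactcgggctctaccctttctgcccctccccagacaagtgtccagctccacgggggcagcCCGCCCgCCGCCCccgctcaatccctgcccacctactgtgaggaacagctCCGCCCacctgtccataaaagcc
Col16a1 (chr4:130047690-130047839, + strand): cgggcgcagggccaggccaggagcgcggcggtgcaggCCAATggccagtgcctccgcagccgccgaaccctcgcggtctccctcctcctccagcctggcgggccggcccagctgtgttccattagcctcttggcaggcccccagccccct
Col6a1 (chr10:76726045-76726194, - strand): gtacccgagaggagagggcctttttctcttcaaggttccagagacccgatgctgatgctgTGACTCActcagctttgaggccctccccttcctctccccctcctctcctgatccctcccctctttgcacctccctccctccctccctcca
Within these 150 bases the marked letters were a CCAAT box in Col1a2 and Col16a1, GC boxes in Col8a1 and an AP-1 site in Col6a1. In the wider 250 bases, GGGCGG was in Col1a2, Col16a1 and Col8a1 and not in Col6a1. Over the 250 bases before the start, GGGCGG was in 21 of the 35 collagen genes (60.0%) and in 32.7% of all 32851 windows of the same length. CCAAT was in 13 (37.1%, against 33.8% of all windows), TATAAA in 5 (14.3%, against 12.4%) and TGACTCA in 1 (2.86%, against 4.46%). The collagens were counted by gene, with a match in any window of the gene (38 windows for 35 genes), and the share of all was counted by window. A match is a description of letters, not of binding.

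The pair Col4a1 and Col4a2, which encode the chains of the common type IV collagen of basement membranes, lies head to head. Their annotated starts overlap, and the 22 bases from one start to the other are in capitals, with 4 bases on either side, read in the direction of each gene.
Col4a2 (chr8:11312801-11312830 of GRCm38.p6, + strand): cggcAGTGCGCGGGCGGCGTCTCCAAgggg
Col4a1 (the same bases, - strand): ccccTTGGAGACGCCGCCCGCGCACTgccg
These 22 bases hold GGGCGG. This pair is shown because, of the collagens, these 2 alone had both iPS lines at least 1 log2 above ES.

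The first comparison set the 3 pluripotent lines against MEF and asked which collagens separate fibroblasts from pluripotent cells. A gene was called at a limma adjusted p under 0.05 over all genes and a difference of at least 1 log2. Of the 44 collagen genes 16 (36.4%) were called lower in the lines, where 9.71% of all genes were called lower. No collagen was called higher, against 7.90% of all genes; by limma 25 of the 44 had an unadjusted p under 0.05, against 37.8% of all genes, and of the 3 genes above 0 only Col6a5 was among them. The median difference was -0.59 log2 over the collagens and -0.10 log2 over all genes, and 41 of 44 were below 0, against 60.2% of all genes. With a lone MEF array, the spread came from the 3 lines alone. Leaving out a line left 1 residual degree of freedom, and the share of all genes called was not counted there. Without iPS 178B5, 2 collagens were called lower (Col5a2 and Col10a1), and without iPS 492B4 9 were; all 16 stayed below MEF in both fits.

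**Figure D1:**
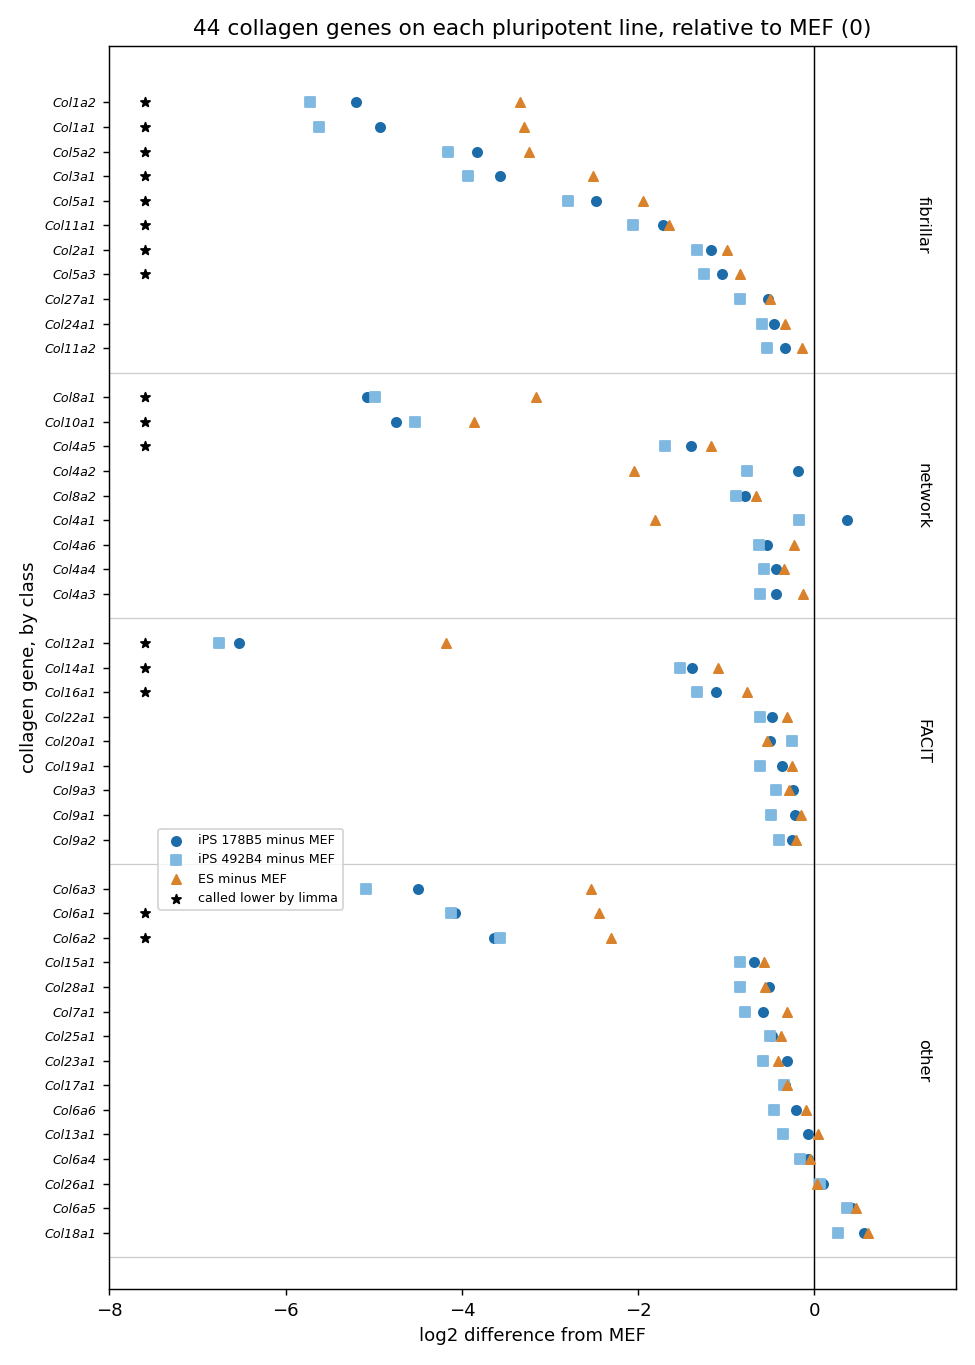
Log2 difference from MEF (horizontal axis) of each of the 44 collagen genes (rows, grouped by class) on the arrays of iPS 178B5 (circles), iPS 492B4 (squares) and ES (triangles), with MEF as the line at 0. Stars mark the 16 genes called lower; the triangle lies right of both iPS points in 37 genes and not in Col4a1, Col4a2, Col9a3, Col20a1, Col23a1, Col26a1 and Col28a1.

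Of the fibrillar collagens 8 of 11 were called lower, with a median of -1.81 log2. Without iPS 178B5 the count was 1 of 11, the same number as for the 9 network collagens, and the difference between classes was not tested. Type I collagen, the chief protein of bone and tendon, is built from the products of Col1a1 and Col1a2. Col1a1 stood at -0.82 in iPS 178B5, -1.51 in iPS 492B4 and 0.82 in ES, against 4.11 in MEF. Col1a2 stood at -0.93, -1.45 and 0.93 in the same lines, against 4.27 in MEF. All 3 lines were far below MEF for both genes, and ES was the nearest to it. Col1a1 fell by 4.61 log2 (24.5-fold lower; SD 1.197 over 3 lines, limma adjusted p = 0.0326) and Col1a2 fell by 4.76 log2 (27.0-fold lower; SD 1.25, adjusted p = 0.0337). Both lost the call when iPS 178B5 was left out (adjusted p = 0.0923 and 0.0927), and Col1a2 also when iPS 492B4 was (0.0547).

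Col5a2, a chain of the type V collagen on which type I fibrils start, stood at -0.30 in iPS 178B5, -0.63 in iPS 492B4 and 0.30 in ES, against 3.53 in MEF. It fell by 3.74 log2 (13.4-fold lower; SD 0.47, adjusted p = 0.00862) and was called whichever line was left out. Col3a1, the collagen of reticular fibres and the chromosomal neighbour of Col5a2, stood at -0.53, -0.89 and 0.53, against 3.04 in MEF, and fell by 3.34 log2 (SD 0.74, adjusted p = 0.0233). For Col3a1, iPS 178B5 and iPS 492B4 differed from ES by -1.05 and -1.42 log2, and ES differed from MEF by -2.51 log2. Of the other type V chains, Col5a1 fell by 2.41 log2 (adjusted p = 0.0164) and Col5a3 fell by 1.05 log2 (adjusted p = 0.0294). Col5a3 had the smallest difference of the 8 fibrillar genes called: with equal array medians its difference was -0.98 log2, under the minimum. Without iPS 178B5 Col3a1 (adjusted p = 0.0747), Col5a1 (0.0636) and Col5a3 (0.113) were not called, and without iPS 492B4 Col5a3 was not (-0.95 log2).

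Of the fibrillar collagens known from cartilage, Col11a1 and Col2a1 were called lower and Col11a2 was not. Col11a1, which seeds cartilage fibrils, stood at -0.035 in iPS 178B5, -0.37 in iPS 492B4 and 0.035 in ES, against 1.69 in MEF, and fell by 1.81 log2 (3.51-fold lower; SD 0.22, adjusted p = 0.0108). Col2a1, the chief cartilage collagen, stood at -0.092, -0.24 and 0.092, against 1.09 in MEF, and fell by 1.17 log2 (SD 0.17, adjusted p = 0.0186). Without iPS 178B5 neither was called (adjusted p = 0.0505 and 0.0852). Of 8 chondrocyte markers 2 were called lower (Sox9 and Comp) and 0 higher, against 9.71% and 7.90% of all genes. Their median difference was -0.14 log2, against -0.10 log2 over all genes. The other 3 fibrillar genes were not called. Col27a1 differed by -0.62 log2 (adjusted p = 0.0935), Col24a1 by -0.46 log2 (0.121) and Col11a2, the partner chain of Col11a1, by -0.34 log2 (0.304).

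**Figure D2:**
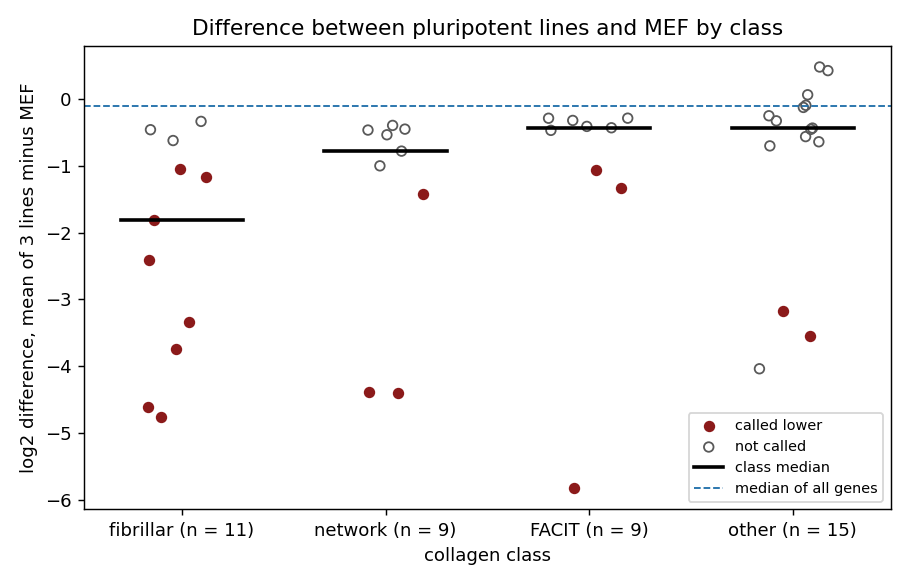
Log2 difference between the mean of the 3 pluripotent lines and MEF (vertical axis) for each collagen gene, by class; filled points were called lower, open points were not called, bars are class medians and the dashed line is the median of all genes. The fibrillar median lies at -1.81 log2, the network median at -0.78, FACIT at -0.43 and the other types at -0.44.

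Among network collagens 3 of 9 were called lower, with a median of -0.78 log2. Of these, Col8a1 and Col10a1 form hexagonal lattices. Col8a1, a collagen of blood vessel walls and of the membrane behind the cornea, stood at -1.01 in iPS 178B5, -0.91 in iPS 492B4 and 0.91 in ES, against 4.07 in MEF. It fell by 4.41 log2 (21.2-fold lower; SD 1.08, adjusted p = 0.0288), a call lost on leaving out iPS 178B5 (0.0742) or iPS 492B4 (0.0624). Col10a1, known as the collagen of hypertrophic cartilage, stood at -0.55, -0.33 and 0.33, against 4.20 in MEF. The 3 lines were closer to each other than for Col8a1, and Col10a1 fell by 4.38 log2 (20.8-fold lower; SD 0.46, adjusted p = 0.00665), called whichever line was left out. Col8a2, the partner chain of Col8a1, differed by only -0.78 log2 and so stayed under the minimum (adjusted p = 0.0318).

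Of the 6 type IV genes 1 was called lower. Col4a5, a chain of the kidney basement membrane, stood at -0.11 in iPS 178B5, -0.40 in iPS 492B4 and 0.11 in ES, against 1.29 in MEF, and fell by 1.43 log2 (SD 0.26, adjusted p = 0.0211; 0.0818 without iPS 178B5). Its neighbour Col4a6 differed by -0.47 log2 (adjusted p = 0.189). The neighbours Col4a3 and Col4a4, also chains of the kidney basement membrane, differed by -0.40 and -0.45 log2 and were not called (adjusted p = 0.293 and 0.120). For Col4a1 and Col4a2 the lines did not move together, and the spread was wide: Col4a1 differed by -0.54 log2 (SD 1.13, adjusted p = 0.707) and Col4a2 by -1.002 log2 (SD 0.95, adjusted p = 0.400).

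The FACIT class held the largest difference of all collagens and otherwise small ones, with 3 of 9 called lower and a median of -0.43 log2. Col12a1, which binds the surface of type I fibrils, stood at -1.17 in iPS 178B5, -1.40 in iPS 492B4 and 1.17 in ES, against 5.36 in MEF. It fell by 5.82 log2 (56.7-fold lower; SD 1.43, adjusted p = 0.0285), a call lost on leaving out iPS 178B5 (0.0782) or iPS 492B4 (0.0548). Col14a1, a related fibril-surface collagen, stood at -0.15, -0.29 and 0.15, against 1.24 in MEF, and fell by 1.34 log2 (adjusted p = 0.0197; 0.0830 without iPS 178B5). Col16a1 was the call closest to the threshold, at -1.07 log2 (adjusted p = 0.0490), and was lost with equal array medians (-0.997 log2, 0.0531), without iPS 178B5 (0.151) and without iPS 492B4 (0.0757). Outside the call, Col22a1 (-0.47 log2, adjusted p = 0.138) and Col20a1 (-0.43 log2, 0.159) came next. The cartilage genes Col9a1, Col9a2 and Col9a3, whose products coat type II fibrils, differed by -0.29, -0.29 and -0.32 log2, and Col19a1, the neighbour of Col9a1, by -0.41 log2. None of these 4 was called, and limma gave 0 of them an unadjusted p under 0.05.

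Of the 15 other collagens 2 were called lower, both chains of type VI collagen, which forms beaded filaments around cells. Col6a1 stood at -0.81 in iPS 178B5, -0.87 in iPS 492B4 and 0.81 in ES, against 3.26 in MEF. Its neighbour Col6a2 stood at -0.70, -0.63 and 0.63, against 2.94 in MEF. The iPS lines nearly coincided for both genes, with ES between them and MEF. Col6a1 fell by 3.55 log2 (11.7-fold lower; SD 0.96, adjusted p = 0.0364) and Col6a2 fell by 3.17 log2 (9.01-fold lower; SD 0.75, adjusted p = 0.0274). Both calls were lost on leaving out iPS 178B5 (0.0918 and 0.0739) or iPS 492B4 (0.0714 and 0.0603). Col6a3, the third chain of the same protein, stood at -0.98, -1.57 and 0.98, against 3.51 in MEF. At -4.04 log2 (16.4-fold; SD 1.34) it was further from MEF than either partner but missed the threshold (adjusted p = 0.0591). It was called without ES (-4.79 log2, adjusted p = 0.00281) and with centring on reference genes (-4.20 log2, 0.0486).

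The alternative type VI chains Col6a4, Col6a5 and Col6a6, neighbours on the chromosome, did not share these differences, at -0.096, 0.42 and -0.25 log2, none called. The probe sets of Col6a5 disagreed: MEF was at -1.09 on one and at 0.20 on the other, and the probe set with the higher mean gave -0.28 log2. Col15a1 and Col18a1 encode the multiplexins, collagens of basement membrane zones with many breaks in the helix. Col15a1 differed by -0.70 log2 (adjusted p = 0.0506) and missed both criteria. Col18a1, the source of the fragment endostatin, was above MEF in all 3 lines, at 0.15 in iPS 178B5, -0.15 in iPS 492B4 and 0.19 in ES, against -0.41 in MEF; the difference of 0.48 log2 was not called (adjusted p = 0.162).

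The membrane-spanning collagens all lay near MEF. Col17a1, of the hemidesmosomes of skin, differed by -0.33 log2, Col13a1, of the neuromuscular junction, by -0.13, Col23a1 by -0.44 and Col25a1 by -0.46. Col7a1, which forms the anchoring fibrils of skin, differed by -0.56 log2 (adjusted p = 0.156). Col28a1 differed by -0.64 log2 (0.0831) and Col26a1 by 0.061 log2 (0.781); Col26a1 was at -0.10 log2 with centring on reference genes. None of these 7 genes was called. Since the table holds no levels, a small difference in a gene of skin or nerve does not tell a gene that is equally active from a gene that is silent in all 4 samples.

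The fit with 3 groups separated iPS from ES, with its spread taken from the 2 iPS lines and 1 array each for ES and MEF. For iPS against MEF 17 of 44 collagens were called lower (11.2% of all genes were), and for ES against MEF 16 of 44 (10.9% of all genes); 0 were called higher in either, where 9.94% and 9.14% of all genes were. These comparisons share the MEF array. Network collagens had 3 of 9 called lower in iPS against MEF and 5 of 9 in ES against MEF, the added 2 being Col4a1 and Col4a2. Fibrillar collagens had 8 of 11 called lower in iPS and 6 of 11 in ES, FACIT 3 and 2 of 9, and the others 3 of 15 in each. Col6a3 was called in both, at -4.79 log2 in iPS (adjusted p = 0.00281) and -2.53 log2 in ES (adjusted p = 0.0148).

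In the direct comparison of iPS with ES, limma called 0 of 44 collagens, as it called 0.00% of all genes; 13 of the 44 had an unadjusted p under 0.05, against 15.4% of all genes. By value, ES was above both iPS lines in 37 of 44 collagens, where this held for 47.7% of all genes. It held for 11 of 11 fibrillar, 7 of 9 network, 7 of 9 FACIT and 12 of 15 other collagens, and for 16 of the 16 called lower, where it held for 58.0% of the 1936 genes called lower overall. The sequence from MEF to ES to both iPS lines, high to low, was found in 34 of 44 collagens and in 25.7% of all genes. The median of iPS minus ES was -0.24 log2 over collagens and -0.056 log2 over all genes.

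In 8 collagens both iPS lines lay at least 1 log2 below ES, which was the case for 1.09% of all genes. These were Col1a1, Col1a2, Col3a1, Col8a1, Col12a1, Col6a1, Col6a2 and Col6a3. The largest was Col12a1, at -2.46 log2 for iPS minus ES (95% interval -2.93 to -1.99, limma adjusted p = 0.0716). It was called with equal array medians (adjusted p = 0.0494) and with centring on reference genes (0.0423). Col6a3 differed by -2.26 log2 (adjusted p = 0.123), Col1a2 by -2.12 (0.118) and Col1a1 by -1.99 (0.161). Col8a1 differed by -1.87 log2 (0.0755; 0.0464 with centring on reference genes), Col6a1 by -1.65 (0.0867), Col6a2 by -1.30 (0.103) and Col3a1 by -1.24 (0.165).

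**Figure D3:**
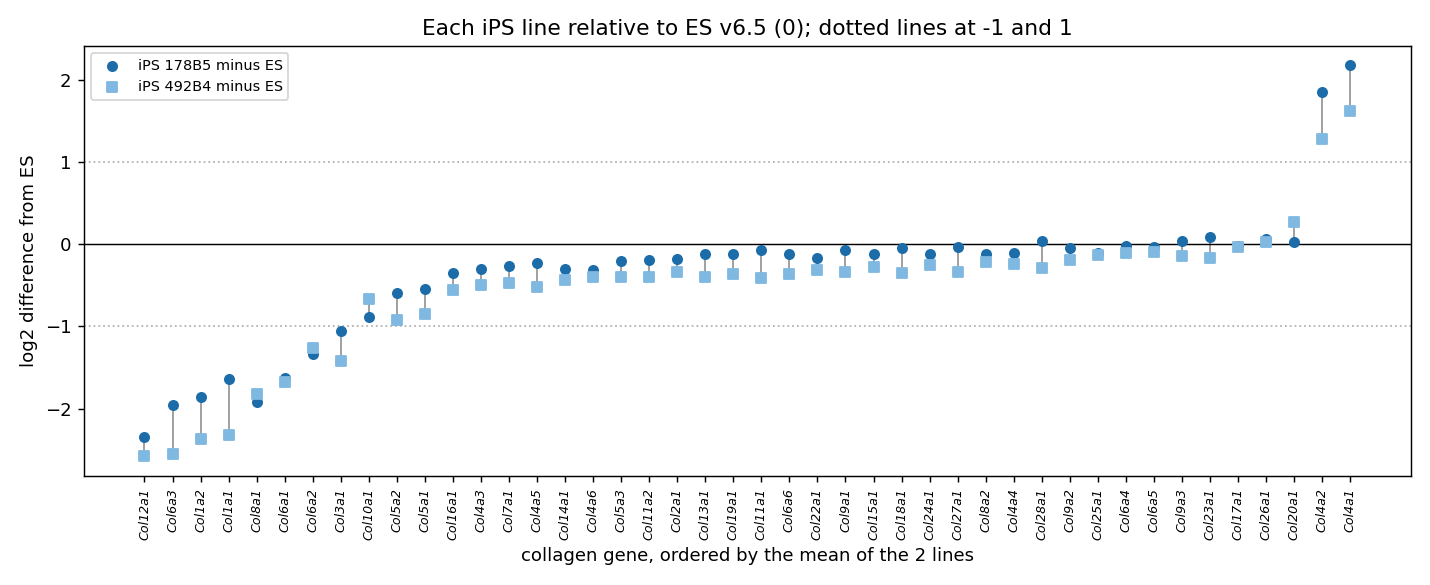
Log2 difference of iPS 178B5 (circles) and iPS 492B4 (squares) from ES (0) for the 44 collagen genes, ordered by the mean of both lines; grey bars join the lines and dotted lines mark a difference of 1 log2. Col12a1 lies at the left end with a mean of -2.46, and Col4a2 and Col4a1 lie at the right end with means of 1.57 and 1.90.

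Fibroblast markers moved with these 8 genes. Of 12 measured fibroblast markers 10 were higher in ES than in both iPS lines, against 47.7% of all genes, and their summed value was -9.76 in iPS 178B5, -12.7 in iPS 492B4 and 8.12 in ES, against 37.7 in MEF. Postn, a matrix protein of fibroblasts, stood at -1.73 in iPS 178B5, -1.73 in iPS 492B4 and 1.73 in ES, against 4.63 in MEF. Thy1, a fibroblast surface protein, stood at -0.93, -1.02 and 0.93, against 2.73. Pdgfra, also on the primitive endoderm list, was lower in ES (-0.51) than in iPS 178B5 (0.41) and iPS 492B4 (-0.41), and Pdgfrb lay between the iPS lines. This was not particular to fibroblast markers: of 5 smooth muscle markers 4 were higher in ES than in both iPS lines and 1 was lower than both. The feeder layer is itself made of fibroblasts. The part of fibroblast RNA in the differences between iPS and ES was not tested.

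Col4a1 and Col4a2 were, by value, lower in ES than in both iPS lines. Col4a1 stood at 0.46 in iPS 178B5, -0.089 in iPS 492B4 and -1.72 in ES, against 0.089 in MEF. Col4a2 stood at 0.29, -0.29 and -1.57, against 0.48 in MEF. For Col4a1 both iPS lines lay near MEF. For Col4a2 iPS 178B5 differed from MEF by -0.19 log2 and iPS 492B4 by -0.77 log2. The ES array was the lowest for both genes. For iPS minus ES the difference was 1.90 log2 for Col4a1 (95% interval 1.14 to 2.67, adjusted p = 0.142) and 1.57 log2 for Col4a2 (0.78 to 2.36, adjusted p = 0.172), neither called. They were the only 2 collagens with both iPS lines at least 1 log2 above ES, which was the case for 0.958% of all genes. Against MEF, Col4a1 differed by -1.81 log2 in ES (adjusted p = 0.0263) and by 0.098 log2 in iPS (0.809), and Col4a2 by -2.05 log2 in ES (0.0216) and by -0.48 log2 in iPS (0.265). The values of ES against MEF set 1 array against 1, with a spread taken from the 2 iPS lines, and since the direct test of iPS against ES passed for neither gene, ES and iPS are not shown to differ.

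Primitive endoderm is an early embryonic lineage that lays down a basement membrane rich in type IV collagen and laminin. Of its 12 listed markers 10 were lower in ES than in both iPS lines, which held for 31% of all genes, and their summed value was 11.2 in iPS 178B5, 4.24 in iPS 492B4 and -9.05 in ES, against -6.53 in MEF. Gata6, a transcription factor of this lineage, stood at 1.62 in iPS 178B5, 0.96 in iPS 492B4 and -1.79 in ES, against -0.96 in MEF. The laminin gene Lamb1, whose product joins type IV collagen in basement membranes, stood at 0.78, 0.25 and -1.26, against -0.25. Gata6 and Lamb1 share with Col4a1 and Col4a2 the sequence of lines from iPS 178B5 to iPS 492B4 to ES, high to low. Relative to MEF the 12 markers were mixed: ES was below MEF in 6 and above it in 6. The mean of the iPS lines was above MEF in 8 and below it in 4. The laminin gene Lama1 stood at 2.02 in iPS 178B5, 1.38 in iPS 492B4 and -1.38 in ES, against -3.82 in MEF. Afp and Ttr, which mark visceral endoderm, varied little, between -0.27 and 0.14 and between -0.075 and 0.11. Lower values in ES were not particular to this list. Of 6 endothelial markers 3 were lower in ES than in both iPS lines and 2 were higher than in both. Tek, from that list, stood at 1.44 in iPS 178B5, 0.46 in iPS 492B4 and -0.46 in ES, against -0.71 in MEF. Lower and higher counts were 4 and 3 of 8 for chondrocyte markers, and 3 and 1 of 5 for keratinocyte markers. The part of primitive endoderm or endothelial cells in the type IV values was not tested.

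**Figure D4:**
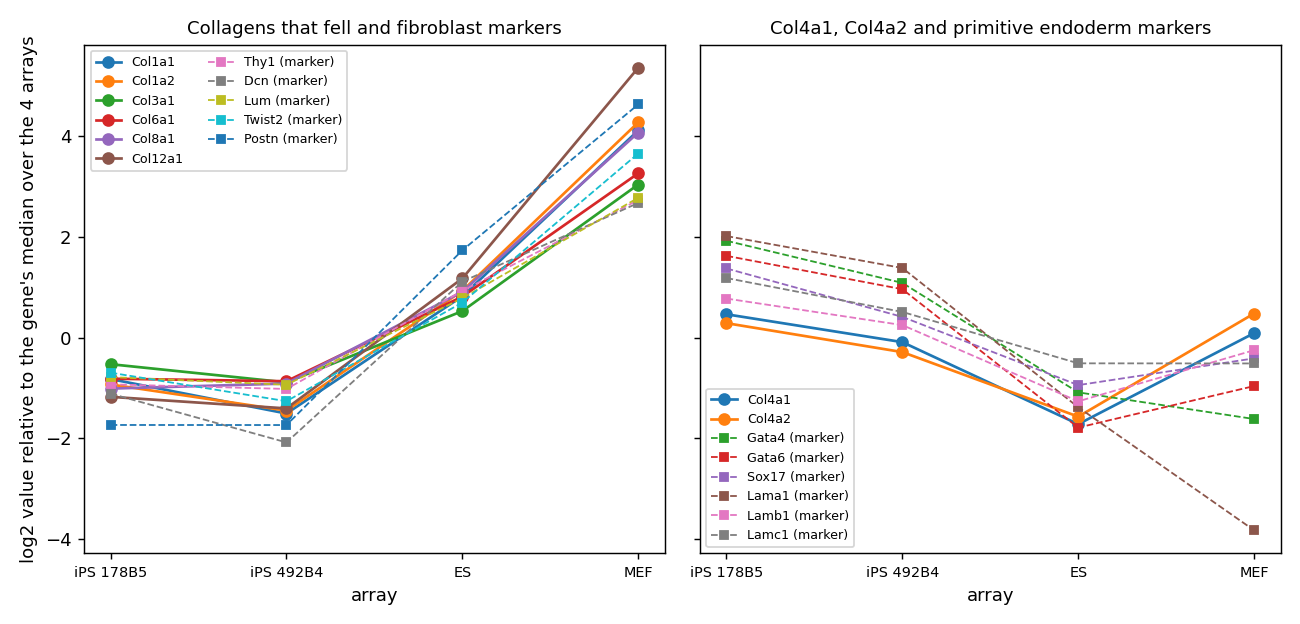
Log2 value relative to each gene's median over the 4 arrays (vertical axis) on the arrays of iPS 178B5, iPS 492B4, ES and MEF. On the left, 6 collagens that fell (solid lines) and 5 fibroblast markers (dashed) step up from the iPS lines to ES and MEF. These 6 collagens had both iPS lines at least 1 log2 below ES. On the right, Col4a1 and Col4a2 (solid) and 6 primitive endoderm markers (dashed) are lower in ES than in both iPS lines. The markers drawn are a selection. In the full lists 10 of 12 fibroblast markers were higher in ES than in both iPS lines, and 10 of 12 primitive endoderm markers were lower.

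The 2 iPS lines were compared by value, since each had 1 array. No collagen differed by 1 log2 or more between them, and 0.612% of all genes did. Nevertheless iPS 492B4 was the lower line for 40 of 44 collagens, against 53.1% of all genes, with a median of -0.20 log2 against -0.015 log2. The exceptions were Col8a1, Col10a1, Col20a1 and Col6a2. Of the 16 collagens called lower than MEF, iPS 492B4 was the lower line for 13, against 67.5% of all genes called lower. Of the 28 collagens not called, it was the lower line for 27, against 53.1% of all genes, called or not. The share over all genes not called was not counted. The largest differences of iPS 492B4 minus iPS 178B5 were -0.68 log2 for Col1a1, -0.59 log2 for Col6a3 and -0.57 log2 for Col4a2.

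Of the 8 pairs of collagens next to each other in the gene table, those with both genes called were Col3a1 with Col5a2 and Col6a2 with Col6a1. As no collagen was called higher, both genes of such a pair could only lie below MEF. Col3a1 and Col5a2 differed from MEF by -3.34 and -3.74 log2, and Col6a2 and Col6a1 by -3.17 and -3.55 log2. In the pair Col4a6 and Col4a5, at -0.47 and -1.43 log2, only Col4a5 was called. In iPS minus ES the pair Col4a1 and Col4a2 stood at 1.90 and 1.57 log2, whereas the pair Col4a6 and Col4a5 stood at -0.35 and -0.37 log2.

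Genes that modify, export, cut, cross-link or bind collagen were listed by role. Of 51 listed 47 were measured, of which 21 were called lower and 1 higher in the lines, with a median of -1.01 log2. Over all genes 9.71% were called lower and 7.90% higher, with a median of -0.10 log2, and the counts by role given next are to be set against these shares. Without iPS 178B5 the number of processing genes called lower was 9. Collagen chains are hydroxylated in the endoplasmic reticulum before they wind up, and 6 of 14 hydroxylation genes fell. P4ha3, a catalytic subunit of prolyl 4-hydroxylase, stood at -0.72 in iPS 178B5, -0.47 in iPS 492B4 and 0.47 in ES, against 4.61 in MEF, and fell by 4.84 log2 (adjusted p = 0.00874). P3h3, a member of the prolyl 3-hydroxylase family, fell by 2.83 log2 (adjusted p = 0.0191; 0.0614 without iPS 178B5).

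Several others of this group had the ES array alone at the bottom, as Col4a1 and Col4a2 did; these were picked out after their values were seen. P4ha1, the widespread prolyl 4-hydroxylase subunit, stood at -0.017 in iPS 178B5, 0.038 in iPS 492B4 and -1.60 in ES, against 0.017 in MEF. P4ha2 stood at 0.066, 0.28 and -2.49, against -0.066. P3h2, a prolyl 3-hydroxylase that acts on type IV collagen, stood at 0.24, -0.025 and -1.60, against 0.025. In all 3 the iPS lines lay near MEF and ES lay far below it. Of the 14 hydroxylation genes 8 were lowest in ES among the lines, against 31% of all genes, and iPS minus ES was 2.66 log2 for P4ha2 (adjusted p = 0.0634), 1.71 log2 for P3h2 (0.0996) and 1.61 log2 for P4ha1 (0.0869), none called.

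Among chaperones and export genes 4 of 11 were called lower. Fkbp14 and Fkbp7, which encode folding enzymes of the endoplasmic reticulum, both fell, with differences of -3.09 and -2.85 log2 (adjusted p = 0.00548 for each). Serpinh1, the collagen-specific chaperone, stood at 0.24 in iPS 178B5, -0.24 in iPS 492B4 and -1.17 in ES, against 1.64 in MEF, and was not called (-2.03 log2, adjusted p = 0.0716). Of 9 genes for the cutting of propeptides 2 were called lower and 1 higher. Tll1 and Bmp1, related proteinases that trim the carboxyl end of fibrillar procollagens, both fell, with differences of -3.62 and -2.58 log2 (adjusted p = 0.0206 and 0.0135; 0.0658 and 0.0554 without iPS 178B5). Mep1b, a meprin subunit, rose by 1.55 log2 (adjusted p = 0.0362), a call lost without iPS 178B5 (0.0732) and without iPS 492B4 (0.0820).

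Cross-linking genes had the largest median difference of the 5 roles, with 3 of 4 called lower and a median of -4.35 log2. Lox, the enzyme that starts cross-links between collagen molecules, stood at -1.52 in iPS 178B5, -1.81 in iPS 492B4 and 1.52 in ES, against 5.56 in MEF. Its relative Loxl1 stood at -0.86, -1.10 and 0.86, against 3.94. ES lay between the iPS lines and MEF for both, as for the fibrillar collagens. Loxl1 fell by 4.31 log2 (adjusted p = 0.0294; 0.0823 without iPS 178B5 and 0.0555 without iPS 492B4). Lox, at -6.17 log2 (adjusted p = 0.0462), kept its call neither without an iPS line (0.109 and 0.0824) nor with equal array medians (0.0525) or a variance trend (0.0535). Of 9 collagen receptors 6 were called lower. Ddr2, a receptor kinase that fibrillar collagen activates, fell by 4.27 log2 (adjusted p = 0.0455; 0.113 without iPS 178B5, 0.0736 without iPS 492B4 and 0.0517 with equal array medians). Itga11, an integrin subunit for type I collagen, fell by 3.30 log2 (adjusted p = 0.00818).

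**Figure D5:**
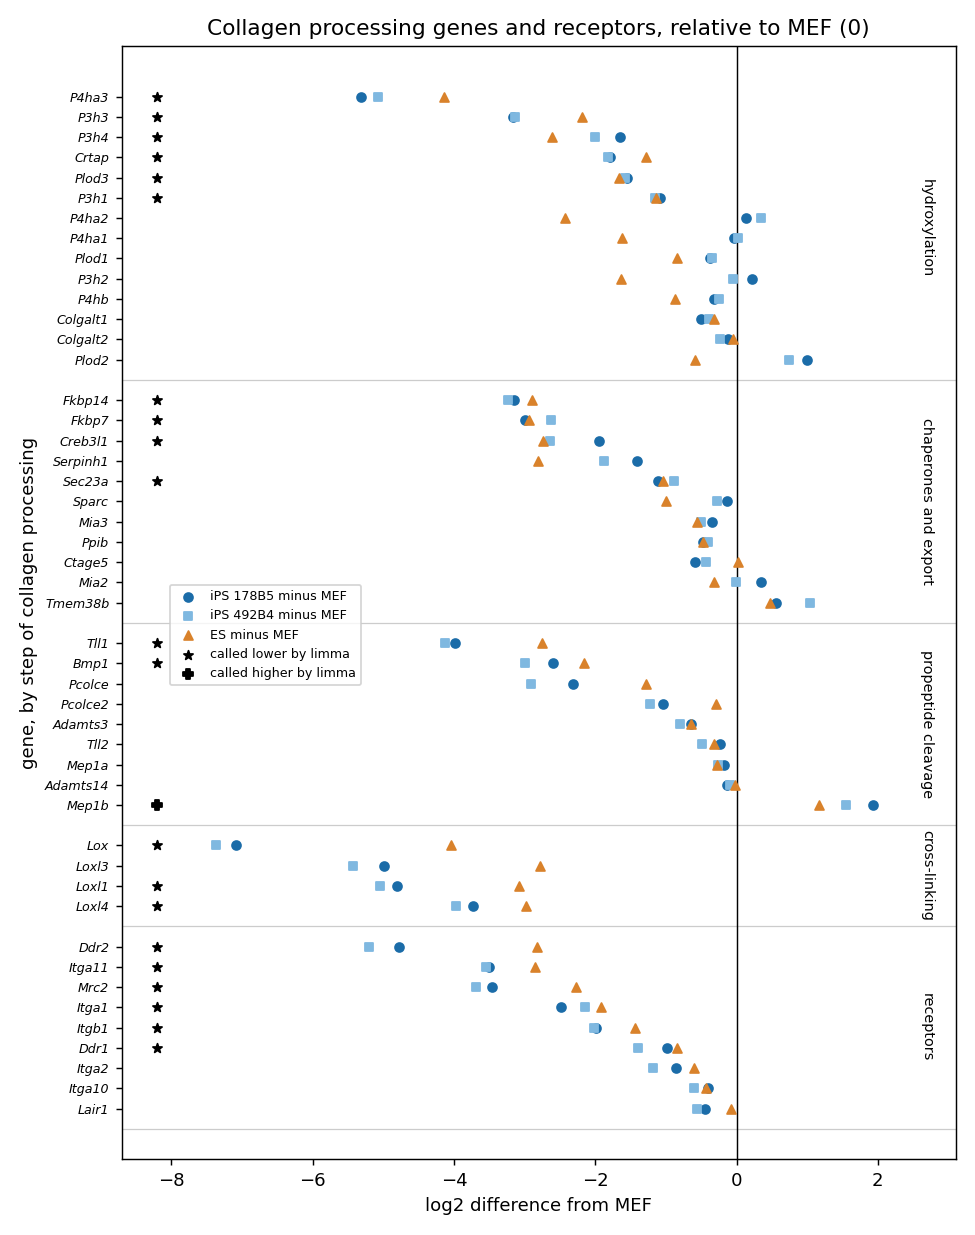
Log2 difference from MEF (horizontal axis) of 47 genes that process or bind collagen (rows, by step) on iPS 178B5 (circles), iPS 492B4 (squares) and ES (triangles), with MEF as the line at 0; stars mark genes called lower and the plus sign the gene called higher. ES lies between iPS and MEF for the 4 cross-linking genes and far below both iPS lines for P4ha1, P4ha2 and P3h2.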

How the data were processed

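The deposited table gave log values of 28853 probe sets on 4 arrays, made by the authors with GCRMA (background correction, normalization between arrays and probe set summary), per the submitters' processing notes. The log2 base of the deposited values is an assumption, since the files do not state it. Each probe set's median over the arrays was 0 within 1e-06, so the authors' table holds differences and no levels, and a filter on low values could not be made. The column medians of the arrays, over genes, were -0.019 for iPS 178B5, -0.029 for iPS 492B4, 0.018 for ES and 0.063 for MEF.

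Probe sets with 1 gene symbol (21789; 1621 had several and 5443 none) were averaged per gene, which gave 19938 genes; gene identifiers of 21698 matched the GRCm38.p6 gene table, with 0 symbols changed. Linear models were fitted across all genes with limma 3.58.1 in R 4.3.3 (lmFit, eBayes), with Benjamini-Hochberg adjustment over all genes, and tested on simulated data. The main fit set 3 lines against MEF (2 residual degrees of freedom). A fit with 3 groups had 1. Lone arrays were assumed to vary like the lines. Separate cell lines stood as replicates, so the p-values cover only how these samples varied, and the number of arrays limits the precision. The alternatives were leaving out each line, equal array medians, centring on reference genes, the probe set with the highest mean, genes with 1 probe set and a variance trend.

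The members and lists were chosen with earlier results of these data known. Genes were named by a rule: the 4 largest falls called per class, members called higher, those nearest the threshold, those with both iPS lines at least 1 log2 from ES, and the 3 largest differences between the iPS lines; for processing genes, the 2 largest called per direction and role. Endothelial, keratinocyte and smooth muscle markers were also counted. In the lines 2 of 6, 0 of 5 and 3 of 5 were called lower and 1, 0 and 0 higher. Over all genes 9.71% were called lower and 7.90% higher.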

Additional observations from a re-analysis of the deposited data

Results flagged for a closer look

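Col13a1, a membrane-spanning collagen, was singled out because both iPS lines were below MEF (-0.070 log2 for iPS 178B5 and -0.35 log2 for iPS 492B4) and ES was above it (0.041 log2). The difference of iPS minus ES was -0.25 log2, and limma's test of it did not pass (adjusted p = 0.557). No sample group was large enough to be examined for single outlying arrays.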

How the results depend on the processing

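Against MEF, each collagen kept its direction under every alternative that gave it a value, except for 3 genes that were not called (the alternative limited to genes with 1 probe set had 42 collagens, without Col6a5 and Col6a6): Col4a1 was at 0.098 log2 without ES and ranged down to -0.99 log2 without iPS 178B5, Col26a1 at -0.10 log2 with centring on reference genes, and Col6a5 at -0.28 log2 with the probe set of highest mean. The number called lower, 16, ranged from 2 without iPS 178B5 to 17 without ES, with 9 without iPS 492B4. By class the range over these fits was 1 to 8 for fibrillar, 1 to 3 for network, 0 to 3 for FACIT and 0 to 3 for other collagens. The processing genes called lower ranged from 9 to 25 and those called higher from 0 to 1. Leaving out a line leaves 1 residual degree of freedom, and the share of all genes called in those fits was not counted. With equal array medians 1 collagen was called lower in iPS against ES (Col12a1), and with reference centring 2 were (Col12a1 and Col8a1), against 0 in the reported fit. ES lay above both iPS lines in 37 collagens as deposited and in 34 to 37 under alternatives chosen after seeing the data. Dropping an iPS line leaves no residual degrees of freedom in the fit with 3 groups, so iPS minus ES has no test there, and the filter on low values was not run because the table holds no levels. No paired analysis was possible because the labels number no replicates across groups. Array signal over background is not in the table, which limits what a small difference can show.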
